A study of Homo sapiens with 9 samples.

Results

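Protocadherins and atypical cadherins were followed in A549 cells, an established human lung adenocarcinoma cell line, after knockdown of Cyclin K. The 10 genes were those whose symbol was PCDH9, PCDH1, PCDH7, PCDH18, FAT1, FAT4, DCHS1, CELSR1, CELSR2 or CELSR3, out of 31080 reference genes or joined sets of genes in the files, and 8 of the 10 passed the filter on low values. RNA sequencing was done on 9 libraries, with 3 of cells given a scrambled siRNA (siCtrl in the labels), 3 given siCyclin K#1 and 3 given siCyclin K#2, all taken 48 h after transfection. The siRNAs #1 and #2 target the same transcript, CCNK, at different sites, and all groups are transient transfections of 1 cell line grown with serum, in an RPMI medium by the labels and in DMEM by the study's methods. The series calls the samples of a group independent but does not say that they were separate cultures, so the p-values below measure the spread between these libraries, which may be technical.

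Cadherins are surface proteins that bind their like on the next cell through repeated calcium-binding domains. The classical cadherins tie this contact to β-catenin, whereas protocadherins and the giant Fat, Dachsous and Celsr cadherins have other cytoplasmic tails and mostly sort cells, orient them within a sheet or restrain growth. Fat cadherins on one cell meet Dachsous on its neighbour, Celsr proteins meet their own kind, and both pairs carry planar polarity, the common direction of cells in an epithelium such as that of the airway.

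CCNK, the gene of Cyclin K and the target of both siRNAs, had 6.90, 7.06 and 7.10 FPKM (fragments scaled to exon length and to the depth of the library) in the scrambled libraries, 0.891, 0.816 and 0.72 under siCyclin K#1 and 0.809, 0.92 and 0.802 under siCyclin K#2. Depth recovered from the values was 31333749 to 33767961 reads a library. KRT8 lay at 49.7 to 104.9 FPKM, KRT18 at 69.8 to 91.0 and ALDH1A1 at 529.2 to 982.4, 3 genes that A549 cells are known to express. Another epithelial marker, EPCAM, was at most 0.279 FPKM, and the alveolar type II markers SFTPC, SFTPB and NKX2-1 were at most 0.114. Of the markers of other cell types, PTPRC, PECAM1, CDH5 and DCN were at most 0.0919 FPKM, whereas CD68 lay at 29.98 to 39.0 and LUM at 0.297 to 2.70, and the part of such cells was not tested. In bulk RNA, fewer cells that express a gene and less of its RNA per cell cannot be told apart.

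With siCyclin K#1, 7 of the 8 tested genes rose and 0 fell at a Benjamini-Hochberg adjusted p under 0.05 in limma, where 26.8% of all 21048 tested genes were called higher and 18.1% lower. The median log2 fold change of the 8 was 1.04, against 0.10 over all tested genes. One of the 7, PCDH1, reached the filter only in the siCyclin K#1 libraries, where it is high, and had to differ. Without it 6 of 7 rose and the median was 0.94. With siCyclin K#2, 5 rose (PCDH9, FAT1, CELSR1, CELSR2 and CELSR3) and 0 fell, beside 19.8% of all genes higher and 15.2% lower, and the medians were 0.30 and 0.01. With both siRNAs taken as 1 group against scrambled, the genes called were PCDH9, FAT1 and CELSR1, that is 3 higher and 0 lower beside 17.0% and 11.5% of all genes. Compared directly, 6 of the 8 were higher under siCyclin K#1 than under siCyclin K#2 and 0 were lower, beside 17.1% and 12.3% of all genes, or 5 of 7 without PCDH1. Both siRNAs were set against the same 3 scrambled libraries. Under the study's stricter rule, a fold change over 3 with an unadjusted p under 0.01, with the fold taken on the log2(FPKM + 0.1) scale, PCDH9 was the 1 gene of the 8 called in each comparison with scrambled, where the rule called 2.29% of all genes with both siRNAs, 4.67% under siCyclin K#1 and 1.94% under siCyclin K#2. With the fold taken as the ratio of mean FPKM, which called 4.26%, 7.64% and 3.55% of all genes, PCDH1 met the rule as well under siCyclin K#1, and PCDH9 again in all 3.

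**Figure D1:**
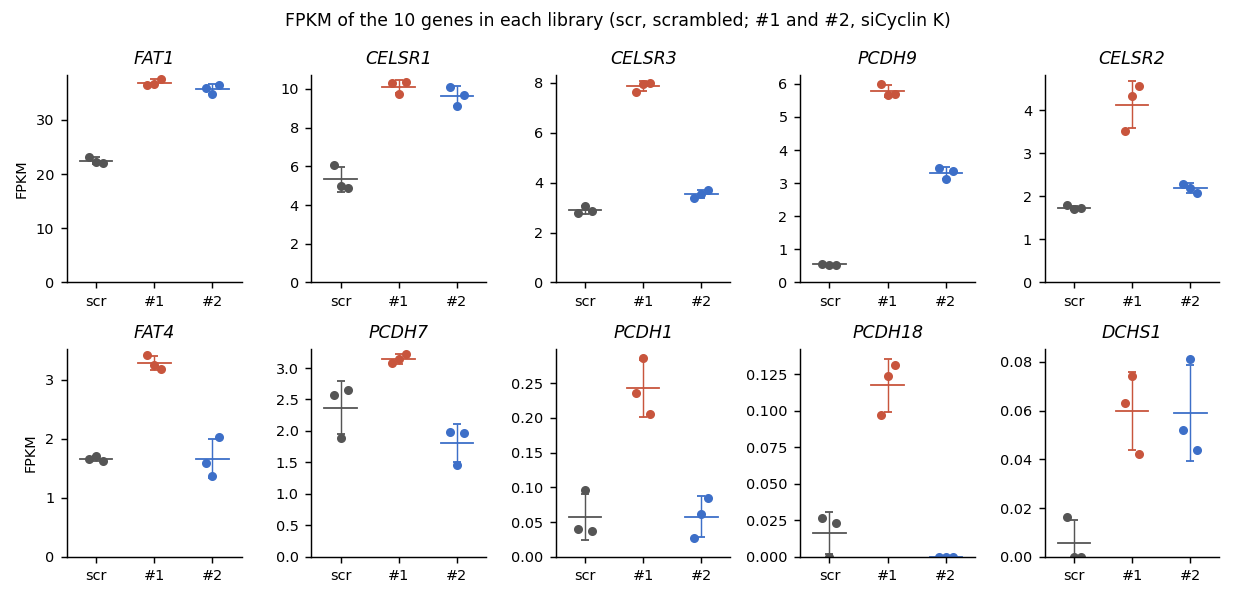
FPKM of each of the 10 genes (vertical axes, linear from 0, each with its own range) in the 3 scrambled libraries (scr) and the 3 libraries of each Cyclin K siRNA (#1, #2). Points are libraries, horizontal lines group means and error bars the SD (n = 3). FAT1 and CELSR1 stood at about the same level with both siRNAs. The siCyclin K#1 libraries lay above both other groups for PCDH9, PCDH1, PCDH7, PCDH18, FAT4, CELSR2 and CELSR3. PCDH7 did not pass the test against scrambled, and PCDH1 was tested only through the siCyclin K#1 libraries.

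The genes differed widely in level, which FPKM, being per length, allows to be compared. In the scrambled libraries FAT1 was the highest at 22.5 ± 0.56 FPKM (SD, n = 3), followed by CELSR1 at 5.32 ± 0.66, CELSR3 at 2.91 ± 0.15, PCDH7 at 2.37 ± 0.42, CELSR2 at 1.74 ± 0.049, FAT4 at 1.66 ± 0.044 and PCDH9 at 0.546 ± 0.015. The libraries of CELSR2 and FAT4 overlapped in level, and those of PCDH7 came close to CELSR3 without overlapping. PCDH1, PCDH18 and DCHS1 had mean levels of at most 0.0575 FPKM. With siCyclin K#1, PCDH9 came between CELSR3 (7.87 ± 0.20) and CELSR2 (4.14 ± 0.55), so it passed PCDH7, CELSR2 and FAT4 in the order. The levels of FAT4 (3.29 ± 0.12) and PCDH7 (3.14 ± 0.072) overlapped there. With siCyclin K#2, PCDH9 (3.32 ± 0.18) again followed CELSR3 (3.55 ± 0.15), their libraries overlapped, and PCDH7 (1.80 ± 0.30) and FAT4 (1.67 ± 0.34) came last of the 7 and overlapped as well.

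The genes lie on 7 chromosomes of GRCh38, where each has the coordinates that GENCODE 29 gives it, and 4 of them (PCDH7, PCDH18, FAT1 and FAT4) are on chromosome 4. PCDH9 has by far the longest span of the 10, 927.6 kb at chr13:66302834-67230445, followed by PCDH7 with 426.4 kb at chr4:30720415-31146805. PCDH18 (chr4:137518918-137532494) is the shortest at 13.6 kb. FAT1 lies at chr4:186587783-186726722 and has 32 exon blocks with 16177 bases of exon, FAT4 has 16439 bases, and the 3 Celsr genes have 12349 to 13873. Promoter sequences of 7 of the 10 genes were in the RefSeq table used here (GRCh38.p14), and FAT4, DCHS1 and CELSR1 were not. These are windows from 250 bases before a gene's start to 50 after it. The bases upstream of the annotated gene are shown for PCDH9 (the gene that rose most), FAT1 (the highest gene, raised to overlapping levels by both siRNAs), CELSR3 (raised mainly by siCyclin K#1) and PCDH7 (not called with either siRNA). Capitals mark the CG dinucleotides, which are the sites of DNA methylation in promoters, and each sequence is 5′ to 3′ on the gene's own strand.
PCDH9 (chr13:67230446-67230586, minus strand): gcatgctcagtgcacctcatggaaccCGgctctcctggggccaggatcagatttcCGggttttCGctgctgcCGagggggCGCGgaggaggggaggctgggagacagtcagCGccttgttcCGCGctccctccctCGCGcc
FAT1 (chr4:186726723-186726946, minus strand): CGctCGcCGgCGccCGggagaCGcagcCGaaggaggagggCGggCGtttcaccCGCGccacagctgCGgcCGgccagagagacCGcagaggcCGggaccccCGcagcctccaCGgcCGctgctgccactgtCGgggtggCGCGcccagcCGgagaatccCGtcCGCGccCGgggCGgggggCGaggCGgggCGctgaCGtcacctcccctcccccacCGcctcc
CELSR3 (chr3:48662916-48663136, minus strand): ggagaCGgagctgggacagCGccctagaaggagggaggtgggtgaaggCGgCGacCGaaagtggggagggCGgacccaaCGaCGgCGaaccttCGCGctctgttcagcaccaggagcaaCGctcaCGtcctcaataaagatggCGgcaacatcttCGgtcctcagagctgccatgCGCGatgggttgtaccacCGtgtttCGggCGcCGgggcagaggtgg
PCDH7 (chr4:30720119-30720368, plus strand): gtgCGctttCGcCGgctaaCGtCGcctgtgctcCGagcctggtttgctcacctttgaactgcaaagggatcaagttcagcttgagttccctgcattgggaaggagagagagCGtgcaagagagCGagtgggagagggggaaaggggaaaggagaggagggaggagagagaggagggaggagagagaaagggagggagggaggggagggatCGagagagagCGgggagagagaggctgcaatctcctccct

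Over the whole 300-base window FAT1 held 40 CG dinucleotides, as many as or more than which 7.6% of the 35116 promoters in the table held, and CELSR2 and CELSR3 held 30 each. PCDH9 held 20, PCDH7 held 16, PCDH18 held 10 and PCDH1 held 6, beside a median of 14 over all promoters. The PCDH1 window starts 9619 bases inside the annotated gene, at a RefSeq start other than the outermost one. That of CELSR2 has an offset of -480 bases from the annotated start and ends before the gene. FAT1 had 2 windows, of which the one nearest the annotated start was used. The letters CTTTGA or CTTTGT, the core bound by TCF/LEF factors, had 1 match in PCDH7 and 1 in PCDH18, with both strands searched. They were not found in the other 5 windows. Of all promoters, 26.2% held at least 1 match, a share near that of these windows. GC content was 77.3% for FAT1, 67.0% for CELSR3, 65.7% for PCDH9 and 60.3% for PCDH7.

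PCDH9 encodes a delta-1 protocadherin, a group known mainly from the nervous system and from tumours in which its expression is lost. It had 0.564, 0.537 and 0.538 FPKM in the scrambled libraries, 6.01, 5.67 and 5.71 under siCyclin K#1 and 3.47, 3.11 and 3.37 under siCyclin K#2. The 3 groups did not overlap, and every siRNA library was several times above every scrambled one. The mean rose 10.6-fold under siCyclin K#1 and 6.07-fold under siCyclin K#2. On the log2(FPKM + 0.1) scale, which understates changes of low genes, the differences were 3.19 ± 0.072 (SE; adjusted p = 1.7e-08, limma) and 2.40 ± 0.072 (adjusted p = 1.6e-07). Over the alternative settings they ranged from 2.13 to 3.21 and from 1.48 to 2.44, lowest with a pseudocount of 1. With both siRNAs as 1 group the difference was 2.79 ± 0.23 (adjusted p = 2.7e-05). Among the 11243 genes with a mean of at least 1 FPKM, PCDH9 ranked 11 from the top with both siRNAs and 16 with each. That mean is over all 9 libraries, and PCDH9 lay below 1 FPKM in every scrambled library. It entered the ranked set through the siRNA libraries, where it is high, so its rank is no support for the rise. PCDH9 was also higher under siCyclin K#1 than under siCyclin K#2, by 0.79 (95% interval 0.62 to 0.95, adjusted p = 7.1e-05, limma).

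The 3 genes whose log2 level followed that of PCDH9 most closely over the 9 libraries, among 11242 genes, were ANXA1, which encodes the phospholipid-binding annexin A1 (Pearson r = 0.9998), CYP24A1, the vitamin D 24-hydroxylase (r = 0.999), and ACAT1, a mitochondrial thiolase (r = 0.9986). ANXA1 had means of 44.5, 143.6 and 109.3 FPKM in the scrambled, siCyclin K#1 and siCyclin K#2 libraries. These libraries form 3 groups, so each r describes the group levels.

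PCDH1, another delta-1 protocadherin, is expressed in airway epithelium and is known as a gene linked to bronchial hyperresponsiveness. It had 0.0401, 0.0957 and 0.0366 FPKM in the scrambled libraries, 0.235, 0.287 and 0.206 under siCyclin K#1 and 0.0264, 0.0612 and 0.0851 under siCyclin K#2. These values stand for 8, 18 and 7 reads, for 45, 53 and 40 reads and for 5, 12 and 16 reads. The siCyclin K#1 libraries lay above all others, and the other two groups overlapped. The log2 difference was 1.13 ± 0.27 under siCyclin K#1 (adjusted p = 0.008, limma) and 0.00 ± 0.27 under siCyclin K#2 (95% interval -0.61 to 0.62), and the direct difference was 1.13 (adjusted p = 0.013). Over the alternative settings the difference under siCyclin K#1 ranged from 0.23 with a pseudocount of 1 to 2.15 on recovered reads, at adjusted p of 0.0022 to 0.03 (limma). PCDH1 passed the filter only through the siCyclin K#1 libraries, where it is high, so its call there is no support for the family.

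PCDH7, the third delta-1 protocadherin and one known to promote MAPK signalling in lung adenocarcinoma, had values on opposite sides of the scrambled mean under the siRNAs. The scrambled libraries had 2.58, 1.88 and 2.65 FPKM, those of siCyclin K#1 had 3.07, 3.14 and 3.22, and those of siCyclin K#2 had 1.99, 1.46 and 1.96. The siCyclin K#1 libraries were the highest, and the siCyclin K#2 libraries overlapped the scrambled ones through the second scrambled library. Neither difference from scrambled passed the test in limma, with log2 values of 0.41 ± 0.15 (adjusted p = 0.06) and -0.37 ± 0.15 (adjusted p = 0.097). The direct difference of 0.78 (95% interval 0.43 to 1.13) did pass, at an adjusted p of 0.005. Without the second scrambled library the difference under siCyclin K#2 was -0.52 (adjusted p = 0.021, limma), and without the second siCyclin K#2 library that under siCyclin K#1 was 0.41 (adjusted p = 0.034).

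PCDH18 is a delta-2 protocadherin, with fewer extracellular repeats than the delta-1 group. It was listed at 0.0266, 0 and 0.0231 FPKM in the scrambled libraries, at 0.097, 0.124 and 0.132 under siCyclin K#1 and at 0 in all siCyclin K#2 libraries. The recovered reads were 6, 0 and 5, then 21, 26 and 29, then 0, 0 and 0. The siCyclin K#1 libraries were above all others. The gene did not pass the filter, and with the filter lifted its log2 difference under siCyclin K#1 was 0.91 (adjusted p = 0.002, limma).

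**Figure D2:**
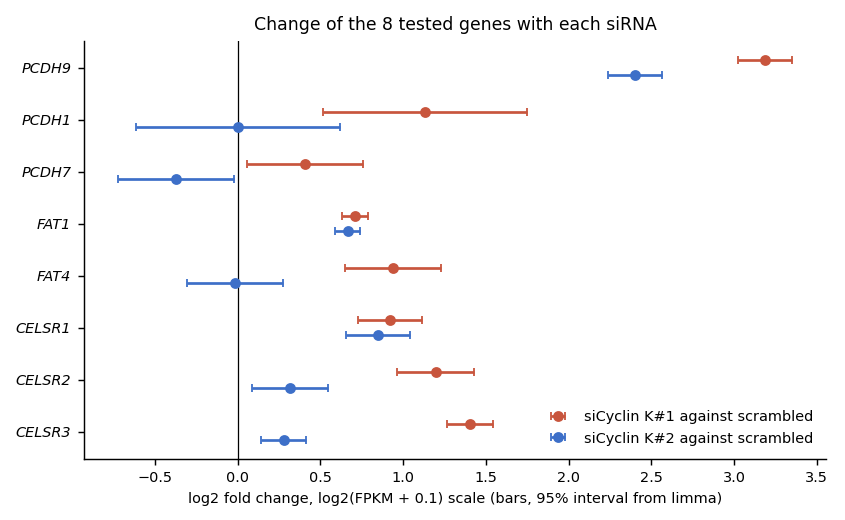
Difference in log2(FPKM + 0.1) from scrambled (horizontal axis) for the 8 tested genes, under siCyclin K#1 (red) and siCyclin K#2 (blue); bars are 95% intervals from limma. PCDH9 lies at 3.19 and 2.40, the points of FAT1 and CELSR1 nearly coincide, and for PCDH1, FAT4, CELSR2 and CELSR3 the siCyclin K#1 point lies well to the right.

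FAT1 encodes a giant cadherin that acts as a tumour suppressor in squamous epithelia and binds regulators of the actin skeleton and of Hippo signalling. Its scrambled libraries had 23.1, 22.2 and 22.1 FPKM, those of siCyclin K#1 had 36.3, 36.7 and 37.6 and those of siCyclin K#2 had 35.9, 34.8 and 36.5. Reads behind these values numbered 11448 to 20037 a library, the most of any of the genes whose reads could be recovered. Every siRNA library was above every scrambled one, and the siRNA groups overlapped each other. The mean was 1.64 and 1.59 times that of the scrambled group, with log2 differences of 0.71 ± 0.034 (adjusted p = 5.9e-07, limma) and 0.66 ± 0.034 (adjusted p = 1.7e-06). With both siRNAs as 1 group it was 0.69 ± 0.049 (adjusted p = 1e-05). Between the siRNAs FAT1 differed by 0.05 (95% interval -0.03 to 0.12, adjusted p = 0.37).

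The 3 genes with the pattern most like that of FAT1 over the 9 libraries were UNC13B, a synaptic vesicle priming factor (r = 0.9983), KIF1C, a kinesin motor (r = 0.9982), and HDAC1, a histone deacetylase (r = 0.9982). HDAC1 had means of 20.6, 47.7 and 43.7 FPKM in the scrambled, siCyclin K#1 and siCyclin K#2 libraries. Here too r describes the levels of 3 groups.

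FAT4, the Fat cadherin that binds Dachsous, had 1.66, 1.71 and 1.62 FPKM in the scrambled libraries, 3.42, 3.25 and 3.19 under siCyclin K#1 and 1.60, 1.37 and 2.03 under siCyclin K#2. The siCyclin K#1 libraries lay above all others, with a mean 1.98 times that of the scrambled group, and the siCyclin K#2 libraries fell on both sides of the scrambled ones. The log2 difference was 0.94 ± 0.13 under siCyclin K#1 (adjusted p = 0.00031, limma) and -0.01 ± 0.13 under siCyclin K#2 (95% interval -0.30 to 0.28, adjusted p = 0.96). The direct difference was 0.96 (95% interval 0.67 to 1.25, adjusted p = 0.00059).

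DCHS1, the Dachsous partner of FAT4, was barely present. It was listed at 0.0165, 0 and 0 FPKM in the scrambled libraries, at 0.0631, 0.0741 and 0.0423 under siCyclin K#1 and at 0.052, 0.0811 and 0.0437 under siCyclin K#2. The reads were 6, 0 and 0, then 22, 25 and 15, then 18, 29 and 15. All 6 siRNA libraries were above the 3 scrambled ones, and the siRNA groups overlapped. DCHS1 did not pass the filter, and with the filter lifted its log2 differences were 0.60 under siCyclin K#1 (adjusted p = 0.025, limma) and 0.59 under siCyclin K#2 (adjusted p = 0.035).

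The Celsr cadherins, the vertebrate counterparts of fly Flamingo, join an adhesion receptor with membrane-spanning helices to the cadherin repeats and organise planar polarity. CELSR1, the form of dividing epithelia, had 6.08, 4.99 and 4.90 FPKM in the scrambled libraries, 10.3, 9.73 and 10.3 under siCyclin K#1 and 10.1, 9.10 and 9.68 under siCyclin K#2. All 6 siRNA libraries exceeded the scrambled ones, and the first scrambled library was the highest of its group. The mean was 1.90 and 1.81 times the scrambled mean, with log2 differences of 0.92 ± 0.084 (adjusted p = 2.9e-05, limma) and 0.85 ± 0.084 (adjusted p = 7.6e-05). With both siRNAs as 1 group the log2 difference was 0.88 ± 0.085 (adjusted p = 5.8e-05). The siRNAs differed from each other by 0.07 (95% interval -0.12 to 0.26, adjusted p = 0.59).

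CELSR2 had 1.79, 1.70 and 1.72 FPKM in the scrambled libraries, 3.52, 4.34 and 4.56 under siCyclin K#1 and 2.30, 2.20 and 2.07 under siCyclin K#2. The groups stood in the order scrambled, siCyclin K#2, siCyclin K#1 without overlap. The log2 difference was 1.20 ± 0.10 under siCyclin K#1 (adjusted p = 1.7e-05, limma) and 0.32 ± 0.10 under siCyclin K#2 (adjusted p = 0.04), and the direct difference was 0.88 (adjusted p = 0.00027). The call under siCyclin K#2 was lost under 13 of 18 alternatives, and over the 18 the adjusted p ranged from 0.012 to 0.12 and the log2 difference from 0.22 to 0.35.

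CELSR3, known best for axon guidance, showed the same order. Its scrambled libraries had 2.78, 3.07 and 2.88 FPKM, those of siCyclin K#2 had 3.40, 3.56 and 3.69 and those of siCyclin K#1 had 7.64, 7.95 and 8.02. No library of one group reached into another. The mean rose 2.70-fold under siCyclin K#1 and 1.22-fold under siCyclin K#2, with log2 differences of 1.41 ± 0.061 (adjusted p = 3.4e-07, limma) and 0.28 ± 0.061 (adjusted p = 0.0068). The direct difference of 1.13 (95% interval 0.99 to 1.27, adjusted p = 3.7e-06) placed CELSR3 at rank 192 from the top among the 11243 genes. CELSR2 and CELSR3 were not called with both siRNAs as 1 group (log2 0.76, adjusted p = 0.058, and 0.84, adjusted p = 0.078, limma), a fit in which the gap between the siRNAs counts as spread.

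Other cadherins of the same kind were read from lists. Of the other non-clustered protocadherins, 6 were in the files and 2 were tested. PCDH10, a delta-2 protocadherin, had 2.27, 2.17 and 2.28 FPKM with scrambled siRNA, 6.49, 6.70 and 6.86 under siCyclin K#1 and 6.14, 5.96 and 6.08 under siCyclin K#2, a log2 difference of 1.47 ± 0.077 with both siRNAs (adjusted p = 1.6e-06, limma). PCDH12, a protocadherin of endothelium and placenta, differed by -0.63 ± 0.20 on the log2 scale with both siRNAs (adjusted p = 0.041, limma), from 0.354 ± 0.019 FPKM to 0.216 ± 0.060 and 0.178 ± 0.040 (SD, n = 3). The PCDH12 call was lost under 9 of 19 alternatives, any scrambled library left out among them (adjusted p of 0.097 to 0.13), and it did not pass under siCyclin K#1 alone (adjusted p = 0.067). PCDH15 was listed at 0 in every scrambled and siCyclin K#2 library and at 33, 24 and 20 reads in those of siCyclin K#1. PCDH15 is named here because of its values.

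The clustered protocadherins, which give neurons their surface identity, sit in 3 neighbouring clusters whose genes share reads or are joined in the files. The 12 alpha genes form 1 joined row (PCDHA13 and others), which rose with both siRNAs by 1.20 ± 0.33 on the log2 scale (adjusted p = 0.023, limma). This call was lost with the replicate block (adjusted p = 0.056) and without any 1 scrambled library (0.064 to 0.074). Its mean FPKM was 0.335 ± 0.018 with scrambled siRNA, 1.36 ± 0.055 under siCyclin K#1 and 0.58 ± 0.051 under siCyclin K#2. Of the beta genes, 11 were tested: 9 rose under siCyclin K#1, 3 under siCyclin K#2 and 5 with both as 1 group, and 0 fell, with medians of 1.16, 0.44 and 0.78. The shares called higher over all genes are 26.8%, 19.8% and 17.0%. The 5 were PCDHB5 (1.41), PCDHB7 (1.19, with an adjusted p that rounds to 0.05), PCDHB10 (1.06), PCDHB6 (0.97) and the joined row of PCDHB8 (0.75). That count of 5 fell to 1 without the first scrambled library and to 3 with another pseudocount, and PCDHB7 and PCDHB10 lost their calls under 14 and 11 of 19 alternatives. PCDHB7 and PCDHB12 passed the filter only through siRNA libraries, where they are high, so their calls are no support for the cluster. Both are among the 9 under siCyclin K#1 and in the medians, and PCDHB7 is among the 5. Neither was called under siCyclin K#2 (adjusted p = 0.13 and 0.32, limma). PCDHB4, PCDHB10, PCDHB11 and the joined row of PCDHB14 reached the filter in 2 scrambled libraries and needed siRNA libraries to make 3. They are in the medians as well, PCDHB10 is among the 5, and PCDHB10, PCDHB11 and PCDHB14 are among the 9. These calls are no support for the cluster either. A joined row of 19 gamma genes (PCDHGA9 and others) rose by 1.05 ± 0.28 (adjusted p = 0.018, limma), a call lost without any 1 scrambled library (0.057 to 0.066). Near-identical copies within a cluster make the split of reads between its genes uncertain.

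Among the other atypical cadherins and calsyntenins 11 were in the files and 6 were tested, of which 4 rose and 1 fell with both siRNAs, beside 17.0% and 11.5% of all genes. The 6 include CDH23, among the 4 that rose, and FAT3, which was not called. Both were tested only through siRNA libraries, where they are high, so they lend that count no support. CDHR2, a protocadherin of the intestinal brush border, rose by 1.84 ± 0.28 (adjusted p = 0.00087, limma) from 0.0724 ± 0.065 FPKM to 0.605 ± 0.11 and 0.398 ± 0.051. CDHR2 reached the filter in 1 scrambled library and passed it through the siRNA libraries, where it is high, so it lends the count no support either. The calsyntenins, cadherin-like cargo adaptors of kinesin, were CLSTN1, which went from 19.1 ± 0.45 FPKM to 35.1 ± 0.69 and 28.2 ± 0.25 (log2 difference 0.71, adjusted p = 0.00053), and CLSTN3, whose row also holds C1RL-AS1 and rose by 1.21 (adjusted p = 0.00026). CDH23, the tip-link cadherin of hair cells, rose by 0.91 but passed the filter only through the siRNA libraries, and CDHR3, the receptor of rhinovirus C, fell by 0.49 from 2.15 ± 0.040 FPKM. FAT3 had 12, 0 and 0 reads in the scrambled libraries, 93, 81 and 78 under siCyclin K#1 and 11, 14 and 11 under siCyclin K#2, and, like PCDH1, it passed the filter only through siCyclin K#1. FAT3 is named here because of its values.

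**Figure D3:**
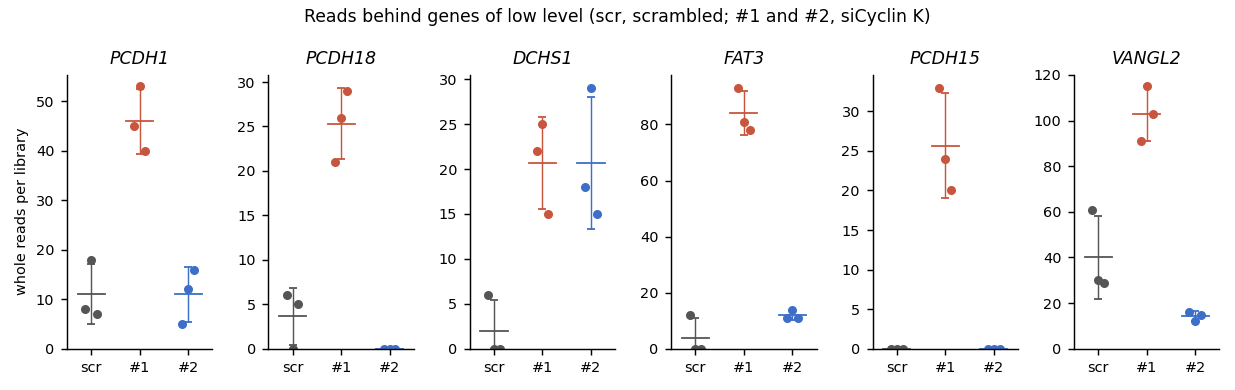
Whole reads recovered from the FPKM values (vertical axes, linear from 0) for PCDH1, PCDH18, DCHS1, FAT3, PCDH15 and VANGL2 in each library; lines are group means and bars the SD (n = 3). PCDH1, PCDH18, FAT3, PCDH15 and VANGL2 were highest in the siCyclin K#1 libraries (#1), whereas DCHS1 had 15 to 29 reads with either siRNA. Over the whole series, too, more features were above 0 in the siCyclin K#1 libraries (40348 to 40790). The scrambled libraries had 38586 to 38893 and those of siCyclin K#2 had 38277 to 38838.

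Planar polarity genes and partners of Fat, 20 of them tested, went both ways. With siCyclin K#1, 9 rose and 4 fell, under siCyclin K#2, 4 rose and 6 fell, and with both as 1 group, 4 rose and 4 fell, with a median log2 difference of 0.13. With both, the shares over all genes are 17.0% higher, near that of the list, and 11.5% lower, which the list exceeds. For each siRNA they are 26.8% and 18.1%, then 19.8% and 15.2%. FJX1, the homologue of the fly kinase Four-jointed that modifies Fat and Dachsous, had 35.8, 32.0 and 36.5 FPKM in the scrambled libraries, 16.9, 12.3 and 11.7 under siCyclin K#1 and 14.6, 17.0 and 17.2 under siCyclin K#2. It fell by 1.23 ± 0.14 on the log2 scale (adjusted p = 0.00015, limma), the largest fall of the list. PRICKLE2 (1.32), VANGL1 (0.99), PRICKLE1 (0.78) and SCRIB (0.77), all cytoplasmic or membrane parts of the polarity machinery, rose with both as 1 group. The VANGL1 call under siCyclin K#2 alone (adjusted p = 0.049, limma) was lost under 11 of 19 alternatives. PRICKLE3 (-0.68), FZD3 (-0.53) and PRICKLE4 (-0.85, in a row shared with TOMM6) fell. SCRIB, PRICKLE3 and FZD3 lie outside the 5 genes the rule names for this list and are given because of their values.

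VANGL2, the main partner of Celsr proteins on the Van Gogh side of a cell, had 0.338, 0.176 and 0.167 FPKM in the scrambled libraries, 0.526, 0.687 and 0.585 under siCyclin K#1 and 0.0932, 0.0677 and 0.0882 under siCyclin K#2. The groups did not overlap. It rose by 1.13 under siCyclin K#1 (adjusted p = 0.0044, limma) and fell by 0.80 under siCyclin K#2 (adjusted p = 0.029, lost under 8 of 18 alternatives), and the direct difference was 1.93 (adjusted p = 0.0004). PTK7, a polarity co-receptor, did the same, with 0.29 (adjusted p = 0.023, lost under 5 of 19 alternatives) and -1.05 (adjusted p = 2.1e-05). VANGL2 and PTK7 are named here because of their values.

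The list of proteins that bind protocadherin tails, chiefly the WAVE complex that starts actin branching, had 14 tested genes, of which 6 rose and 1 fell with both siRNAs, beside 17.0% and 11.5% of all genes, and the median log2 difference was 0.02. Under siCyclin K#1, 6 rose and 4 fell with a median of -0.07, beside 26.8% and 18.1% of all genes and a median of 0.10. Under siCyclin K#2, 7 rose and 1 fell with a median of 0.17, beside 19.8% and 15.2% and a median of 0.01. CYFIP2 (0.83), ABI1 (0.64), BRK1 (0.57) and CYFIP1 (0.33), all WAVE complex subunits, rose. The other subunits tested (NCKAP1, WASF1, WASF2, WASF3 and ABI2) were not called with both siRNAs, and WASF2 fell by 0.50 under siCyclin K#1 (adjusted p = 1.4e-05, limma). BRK1, for example, went from 90.8 ± 1.6 FPKM to 136.0 ± 2.3 and 134.5 ± 4.6. PPP1CB (0.71, in a row shared with SPDYA) and the kinase TAOK2 (0.28) rose too, and PPP1CA differed by -0.25 (adjusted p = 0.033, lost under 9 of 20 alternatives), the last 3 genes encoding enzymes that bind delta protocadherins. TAOK2, PPP1CA and WASF2 are named because of their values.

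**Figure D4:**
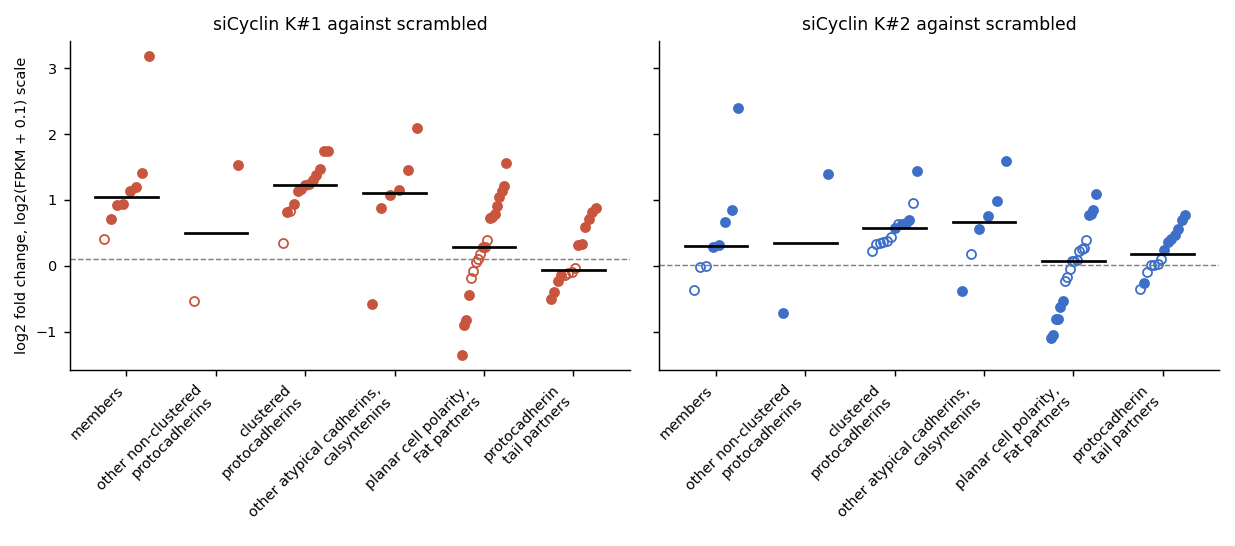
Difference in log2(FPKM + 0.1) from scrambled (vertical axis) for every tested gene of the 10 (members) and of the other lists, under siCyclin K#1 (left) and siCyclin K#2 (right). Filled points have an adjusted p under 0.05, black lines are list medians and the dashed line is the median of all tested genes. Clustered protocadherins have a median above the dashed line in both panels, whereas planar polarity genes spread to both sides. Several clustered rows, PCDHB7 and PCDHB12 among them, passed the filter only with the help of siRNA libraries, where they are high. Their median is therefore no support for a rise of the clusters.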

How the data were processed

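A549 RNA was extracted 48 h after transfection and sequenced by the authors, who deposited 1 table per library of FPKM per feature made with StringTie 1.3.3b (per the labels). The aligner, filters and annotation release are not given in the sources used here. Of 56252 features, 25125 that name no reference gene were not used, and rows of 1 gene were summed. FPKM is not a count, so log2(FPKM + 0.1) of the 21048 genes with at least 0.1 FPKM in at least 3 libraries was tested with limma 3.58.1 (R 4.3.3), eBayes with trend and Benjamini-Hochberg adjustment over all of them. The comparison of both siRNAs used 2 groups, the others 3 groups with a shared spread. With GENCODE 29 exon lengths 85.05% of nonzero values were whole reads within 0.05, giving the depth and the reads quoted. The rows of FAT4 and CELSR1 to CELSR3 are StringTie loci and, like PCDH9 and PCDH7, gave no whole reads. Replicates differed beyond sampling noise (chi-square per degree of freedom 13.5 to 18.2). Replicate numbers did not pair the samples: deviations of same-numbered libraries correlated at -0.07 to 0.04. The named genes were the 10 cadherins, CCNK, up to 5 called genes a list by absolute log2 difference and 3 look-alikes each for PCDH9 and FAT1; others are said to be named for their values. The members and lists were chosen with earlier results of these data known. Alternatives changed the pseudocount, filter, scaling, trend, grouping, replicate block, handling of repeated rows and input (recovered reads), or left out 1 library. Protein sequences were not used here.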

Additional observations from a re-analysis of the deposited data

Results flagged for a closer look

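Some genes responded differently to the siRNAs, tested by contrasting siCyclin K#1 directly with siCyclin K#2 in limma (Benjamini-Hochberg adjusted over all tested genes). Of the 10 cadherins, CELSR3 differed by 1.128 on the log2 scale (adjusted p = 3.7e-06), FAT4 by 0.956 (0.00059), CELSR2 by 0.882 (0.00027), PCDH9 by 0.788 (7.1e-05) and PCDH7 by 0.781 (0.005), each higher under siCyclin K#1. PCDH1 (1.131, adjusted p = 0.013) and FAT3 (0.98, 0.018) passed the filter only through the siCyclin K#1 libraries, so they had to differ. Of the listed genes, VANGL2 differed by 1.931 (adjusted p = 0.0004), PTK7 by 1.34 (8.7e-06), PCDHB7, tested only through siRNA libraries, by 1.117 (0.018), the joined alpha row with PCDHA13 by 1.106 (0.00019), the joined gamma row with PCDHGA9 by 0.823 (0.0045), CLSTN3 by 0.465 (0.00056), PRICKLE2 by 0.457 (0.017) and CLSTN1 by 0.314 (0.00013), in the same direction. PPP1CC (-0.794, adjusted p = 0.0011), WASF2 (-0.528, 3e-05) and PRICKLE3 (-0.30, 0.027) were lower under siCyclin K#1; PPP1CC is named because of its values. Both siRNAs left CCNK at like levels, 0.809 ± 0.086 and 0.844 ± 0.066 FPKM (SD, n = 3), and its part in these differences was not tested. Among the 6 siRNA libraries, 45 named genes were screened for 1 distant library by Dixon's criterion, and 0 had one. The criterion takes the 6 as 1 population, for which chance would give 2.25. They are 2 groups, however, and 18 genes differed between these. A gap between the groups widens the range and hides a distant library, so nothing is concluded from the count.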

How the results depend on the processing

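The count of cadherins called with both siRNAs was 3 of 8 and became 6 when the average of the siRNAs was taken in the 3-group fit, whose spread leaves out the gap between the siRNAs, and ranged from 3 to 5 when 1 library was left out, with 5 without the first siCyclin K#2 library. Left-out libraries gave 6 to 8 under siCyclin K#1 (main count 7), 4 to 5 under siCyclin K#2 (5) and 5 to 6 directly (6). Without any 1 siCyclin K#1 library PCDH1 no longer passed the filter. On recovered reads, which exist for 2 tested cadherins (FAT1 and PCDH1), limma-voom called 1 gene for both siRNAs, then 2 under siCyclin K#1, 1 under siCyclin K#2 and 1 directly. With the replicate block the counts were 3, 8 (PCDH7 added, adjusted p = 0.029), 4 (CELSR2 lost, adjusted p = 0.079) and 6; the shared numbers did not pair the samples. With the filter lifted, 4, 9, 5 and 7 of 10 were called. The shares over all genes given above belong to the main fit, so the counts under alternative settings cannot be set against them. As deposited, all tested genes had a median shift of 0.10 on the log2 scale under siCyclin K#1, which was -0.02 after quantile normalization and -0.00 after median-ratio rescaling. Values near 0 changed sign, and the cause was not tested. PCDH7 with both siRNAs went from 0.02 to -0.066 under rescaling, to -0.11 under quantile normalization, to -0.134 without the second scrambled library and to -0.055, -0.061 and -0.067 without each siCyclin K#1 library (0.151 at the highest, without the second siCyclin K#2 library). PCDH1 under siCyclin K#2 was -0.013 under rescaling, -0.071 and -0.09 without the scrambled replicates 1 or 3, and -0.022 and -0.122 without the siCyclin K#2 replicates 2 or 3 (0.17 at the highest). FAT4 under siCyclin K#2 was 0.005 without the second scrambled library, and 0.006 and 0.11 without the first or second siCyclin K#2 library (-0.158 at the lowest). Between the siRNAs FAT1 was -0.028 and CELSR1 -0.003 under rescaling. Of 576 single-gene values of the cadherins under alternatives, 533 kept direction and side of the threshold, 14 gained the call, 13 lost it (all for CELSR2 under siCyclin K#2) and 16 changed sign. Among the listed genes with both siRNAs, leaving out 1 library moved the beta protocadherins called from 5 to between 1 (without the first scrambled library) and 5, and the 3-group fit gave 8. Depth limits PCDH1, PCDH18 and DCHS1, which rest on at most 53 reads a library.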
